A study of Homo sapiens with 6 samples.

Results

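The miR-15/16 family is a group of related miRNAs that carry an AGCAGC core near the 5′ end of their guide strand. Here it was taken as every 5p arm of miR-15a, miR-15b, miR-16, miR-195, miR-424, miR-497 and miR-503. They were chosen by name and not by any measured value, though with earlier results of these data known. The best known are hsa-miR-15a-5p, hsa-miR-15b-5p and hsa-miR-16-5p, written below without the species prefix. All 7 names were among the 2575 mature miRNA entries of the deposited tables, 6 of the 7 had at least 1 count, and 4 had enough counts to be tested. The data are small RNA sequencing libraries of exosomes, the vesicles that cells shed into their medium, from HCT116, a human colorectal cancer line used at passage 16 to 19. The 3 libraries titled untreated come from cells given bacterial medium without bacteria, and the 3 titled ETBF from cells kept for 6 h with a toxin-making gut bacterium, enterotoxigenic Bacteroides fragilis, at 500 bacteria per cell. For 6 of 6 libraries the deposited file is named for the other group. Groups below follow the titles, so each direction turns round if the file names are right, while sizes, errors and p-values stay.

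The members pair with mRNAs through the seed, bases 2 to 8, and are best known for repressing BCL2, which blocks apoptosis, and the cyclins and kinases that start the cell cycle, among them CCND1, CCNE1 and CDK6. They are made from paired hairpins: MIR15A with MIR16-1, MIR15B with MIR16-2, MIR195 with MIR497 and MIR424 with MIR503. Deletion of the MIR15A and MIR16-1 locus is a hallmark of chronic lymphocytic leukaemia, and p53 is known to aid the processing of the miR-16-1 precursor.

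The mature sequences show which members share a seed and which are close enough for their reads to be hard to tell apart. All are RefSeq sequences from the table for GRCh38.p14, where 7 of 7 members were found. Each is written 5′ to 3′ with the seed in capitals.
miR-15a-5p: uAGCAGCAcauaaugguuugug
miR-15b-5p: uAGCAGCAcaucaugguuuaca
miR-16-5p: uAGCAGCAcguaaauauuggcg
miR-195-5p: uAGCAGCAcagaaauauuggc
miR-497-5p: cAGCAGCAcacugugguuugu
miR-424-5p: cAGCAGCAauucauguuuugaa
miR-503-5p: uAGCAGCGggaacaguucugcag
miR-103a-3p: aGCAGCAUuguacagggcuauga
miR-107: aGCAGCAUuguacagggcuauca
The first 6 share the seed AGCAGCA, and miR-503-5p differs in its last seed base. miR-103a-3p and miR-107, shown for comparison, are no members: they hold the same core at base 1, so their seed is shifted to GCAGCAU. Counted from base 1, miR-16-5p and miR-195-5p are the same at 19 of 21 shared positions and differ by G10A and U11G, with miR-16-5p 22 bases long and miR-195-5p 21. miR-15a-5p and miR-15b-5p are the same at 18 of 22, miR-15a-5p and miR-497-5p at 17 of 21, and miR-16-5p and miR-15a-5p at 16 of 22. How many mismatches the counting allowed is not given in the sources used here.

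In GENCODE 29, MIR15A and MIR16-1 lie on chromosome 13, 57 bases apart, in introns of the non-coding gene DLEU2, with no exon of any transcript across them. MIR15B and MIR16-2 lie on chromosome 3, 59 bases apart, in introns of SMC4, a condensin subunit gene. MIR195 and MIR497 lie on chromosome 17, 209 bases apart, inside MIR497HG, where 1 of its 2 transcripts has an exon across each hairpin and the other an intron. MIR424 and MIR503 lie on the X chromosome, 215 bases apart, MIR503 in introns of MIR503HG and MIR424 outside it. No start and end positions are given because the submitters' build was GRCh37.p5.

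Libraries held 200207 to 417321 counts, and 417 to 482 entries had a count in each. Levels are in CPM, the count as a share of the library after scaling by trimmed mean of M values (TMM), and 3 counts, the limit that a count of 0 allows, come to 8.29 to 14.6 CPM. That limit and the exact intervals of shares and ratios cover counting error only, while those of fold changes come from the spread between libraries in the edgeR fit. The 10 colon epithelial markers all had counts, with a summed level of 46180 to 47643 CPM in the titled untreated group and 38432 to 43837 CPM in the titled ETBF group. The lowest of them, miR-215-5p, had only 24 counts in all. Red blood cells are rich in miR-16, and their 5 markers also had counts, summing to 294.6 to 303.8 CPM and 248.1 to 326.7 CPM. Nearly all of that was miR-451a and miR-486-5p, with 220 and 268 counts over the libraries. miR-144-3p, miR-144-5p and miR-363-3p held only 5, 9 and 8 counts in all. The muscle markers summed to 19536 to 20919 CPM and 15397 to 18776 CPM, with 4 of 5 detected and miR-208a-3p at 0. The 4 white blood cell markers had counts as well, summing to 381.1 to 433.6 CPM and 284.2 to 415.0 CPM. The liver marker miR-122-5p stood at 5420 to 6556 CPM and 4804 to 5062 CPM. The part of RNA from such other sources in the family's levels was not tested. In the edgeR fit 1 of 9 tested colon epithelial markers passed (miR-375, log2 fold change -0.61, adjusted p = 0.0432). Of the muscle, white blood cell and liver markers 0 of 4, 0 of 3 and 0 of 1 did, against 14.4% of all tested entries. The titled groups did not overlap in 4 of 9, 2 of 4, 1 of 3 and 1 of 1 of these lists, against 39.0% of all tested entries.

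The family was a small part of the vesicle miRNA, and miR-16 was its largest member. The 7 entries held 331, 528 and 442 counts in the titled untreated group and 468, 309 and 508 in the titled ETBF group, 2586 in all. That was 0.165%, 0.143% and 0.151% of the titled untreated counts (exact Clopper-Pearson 95% intervals from 0.131% at the lowest bound to 0.184% at the highest) and 0.187%, 0.139% and 0.122% of the titled ETBF counts (0.111% to 0.205%). The titled ETBF group span the titled untreated ones, with replicate 1 highest and replicate 3 lowest. Mean shares were 0.153% ± 0.0113 and 0.149% ± 0.0337 (SD, n = 3; exact permutation test, two-sided, p = 0.9, adjusted p = 1 over 3 measures of the family's makeup; 0.1 is the smallest p that 3 against 3 allow). The difference of -0.00375 percentage points depended on what the total held: it was 0.0296 without miR-148a-3p, the most abundant entry (exact permutation p = 0.1), and -0.0449 without miR-7641, miR-6087 and miR-1246, at 0.195% and 0.150% (exact permutation p = 0.3). Whether miR-16-5p was counted at both of its loci is undecided, as set out below, and with its counts divided by 2 the mean shares would be 0.0912% and 0.0874%. Fewer cells or vesicles of a kind and less miRNA in each cannot be told apart in such bulk preparations.

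miR-16-5p, the best studied member and a frequent internal control for blood and vesicle RNA, held 2115 of the 2586 family counts, 81.8%, or 69.2% with its counts divided by its 2 loci. Its share of the family lay between 80.1% and 84.1% in the 6 libraries, and it ranked 52nd to 56th of all entries. Counts ran from 260 in titled ETBF replicate 2 to a highest value shared by titled untreated replicate 2 and titled ETBF replicate 3. As levels they were 1314, 1174 and 1134 CPM in the titled untreated group and 1283, 1173 and 1316 CPM in the titled ETBF group, and the groups overlapped throughout. The means were 1207 ± 94.4 and 1257 ± 75.1 CPM (SD, n = 3), which gave a log2 fold change of 0.07 (standard error, SE, 0.09; edgeR quasi-likelihood test, adjusted p = 0.629). The 95% interval of the difference ran from 0.903-fold to 1.21-fold. The sign turned without titled untreated replicate 3, at -0.039.

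miR-195-5p came next in level although it is made from a different locus than the miR-15 and miR-16 hairpins. It is best known from muscle and heart, where it restrains the cell cycle. It held 22, 41 and 38 counts in the titled untreated group and 46, 31 and 37 in the titled ETBF group, or 107.03, 113.2 and 121.7 CPM against 154.9, 139.8 and 114.6 CPM. Titled ETBF replicates 1 and 2 lay above every titled untreated library and replicate 3 lay among them. Means were 114.0 ± 7.36 and 136.5 ± 20.4 CPM (SD, n = 3; log2 fold change 0.25, SE 0.19, edgeR adjusted p = 0.418). miR-16-5p exceeded it 8.28 to 12.3 times in counts within a library.

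miR-497-5p, the partner of miR-195 in the same primary transcript, was lower: 13, 13 and 19 counts in the titled untreated group and 12, 7 and 16 in the titled ETBF group. Its levels were 63.2, 35.9 and 60.8 CPM against 40.4, 31.6 and 49.6 CPM, with overlapping groups and a log2 fold change of -0.31 (SE 0.31, edgeR adjusted p = 0.532). The count ratio of miR-195-5p to miR-497-5p was 1.69, 3.15 and 2.00 in the titled untreated group and 3.83, 4.43 and 2.31 in the titled ETBF group. miR-195-5p was the more abundant of the pair in 6 of 6 libraries.

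miR-15b-5p, made beside one copy of miR-16 on chromosome 3, had the widest spread of the tested members. It held 16, 35 and 18 counts in the titled untreated group and 23, 6 and 13 in the titled ETBF group, which is 77.8, 96.7 and 57.6 CPM against 77.5, 27.1 and 40.3 CPM. Titled ETBF replicates 2 and 3 lay below all titled untreated libraries, while replicate 1 lay among them. The fitted difference was 1.57-fold lower in the libraries titled ETBF and did not pass (log2 fold change -0.65, SE 0.37, edgeR adjusted p = 0.260). Without titled ETBF replicate 1 it was -1.19 and passed (edgeR adjusted p = 0.0162, against 0.0162 to 0.599 over the settings tried), in a fit that called 28.1% of all entries. Without titled untreated replicate 2 it was -0.42, and without titled ETBF replicate 2 it was -0.38.

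miR-15a-5p, the partner of miR-16 on chromosome 13, had too few counts for the test in the chosen setting. The titled untreated group held 9, 13 and 12 counts and the titled ETBF group 4, 5 and 14, at 43.8, 35.9 and 38.4 CPM against 13.5, 22.6 and 43.4 CPM. Titled ETBF replicates 1 and 2 were low and replicate 3 was at the level of the titled untreated group. Where a filter of 10 CPM in 3 libraries let it in, its log2 fold change was -0.53 (edgeR adjusted p = 0.445). It was -0.19 without titled ETBF replicate 1 and -1.14 without titled ETBF replicate 3, and passed in neither (edgeR adjusted p of 0.791 and 0.147).

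miR-424-5p and miR-503-5p, which are induced together in differentiating muscle and myeloid cells, were at or near 0. miR-424-5p held 1, 1 and 1 counts in the titled untreated group and 2, 0 and 3 in the titled ETBF group, never above the 3-count limit. miR-503-5p held 0 counts in 6 of 6 libraries, which allows up to 8.29 to 14.6 CPM depending on the library. Other miRNAs of the same X-chromosome cluster were easier to see: miR-450a-5p had 155 counts over the 6 libraries and miR-542-3p had 91, against 8 for miR-424-5p. They were measured at 85.2 ± 26.5 and 47.9 ± 0.859 CPM in the titled untreated group and 93.2 ± 21.4 and 59.3 ± 9.13 CPM in the titled ETBF group (SD, n = 3). Of the 7 cluster entries outside the family 3 had a count and 2 were tested, and 0 passed (edgeR adjusted p of 0.768 and 0.528). miR-450a-5p, like miR-16-5p, is encoded more than once, and counting at each copy could raise it.

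**Figure D1:**
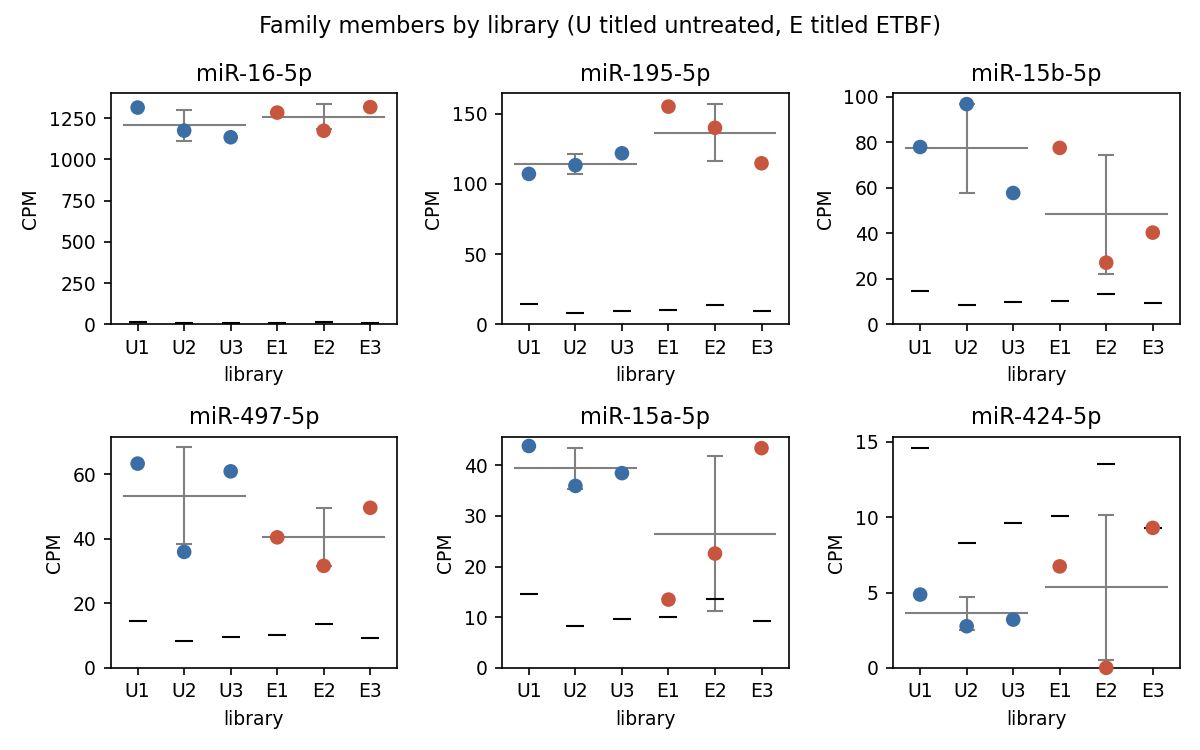
Level of the 6 detected members in each library, in CPM on linear axes that start at 0, with the group mean (grey line) and SD (bar) and the level of 3 counts in that library (black dash). miR-16-5p stays between 1134 and 1316 CPM, miR-15b-5p lies between 27.1 and 96.7 CPM and miR-15a-5p between 13.5 and 43.8 CPM with overlapping groups, and miR-424-5p does not rise above the 3-count level.

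Ordered by mean level over the 6 libraries, the family ran miR-16-5p (1232 CPM), miR-195-5p (125.2), miR-15b-5p (62.8), miR-497-5p (46.9), miR-15a-5p (32.9), miR-424-5p (4.48) and miR-503-5p (0). Mature lengths are 21 to 23 bases, so these levels compare like with like in length, though not in how well each sequence is captured. miR-16-5p exceeded miR-195-5p in 6 of 6 libraries, miR-195-5p exceeded miR-15b-5p in 6 of 6, and miR-15a-5p exceeded miR-424-5p in 6 of 6 (exact sign-flip permutation test over libraries, two-sided, p = 0.03125 for each, the smallest that 6 libraries allow; adjusted p = 0.0625 over 6 neighbouring pairs). miR-15b-5p exceeded miR-497-5p in only 3 of 6 (exact permutation p = 0.281, adjusted p = 0.281). miR-497-5p exceeded miR-15a-5p in 5 of 6 and miR-424-5p exceeded miR-503-5p in 5 of 6 (exact permutation p = 0.0625 and adjusted p = 0.075 for each). As miR-503-5p was at 0 throughout, the last comparison only counts the libraries where miR-424-5p was seen. No pair had an adjusted p under 0.05. The neighbours were picked by the same levels that were then tested, so these tests cannot establish the order.

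miR-16 and miR-15 leave the same primary transcripts. Their ratio was taken within each library, where scaling between libraries has no part in it. The count ratio of miR-16-5p to miR-15a-5p and miR-15b-5p together was 10.8, 8.85 and 11.8 in the titled untreated group. It was 14.1, 23.6 and 15.7 in the titled ETBF group. Every titled ETBF library lay above every titled untreated one. The exact 95% counting intervals of single libraries ran from 6.56 to 17.8 across the first group and from 9.55 to 47.9 across the second. They overlapped between the groups except for titled untreated replicate 2 against titled ETBF replicate 2. The geometric means were 10.4 and 17.4, a 1.67-fold higher ratio in the libraries titled ETBF (log2 ratios 3.38 ± 0.21 and 4.12 ± 0.39, SD, n = 3; exact permutation test, two-sided, p = 0.1, adjusted p = 0.3 over 3 measures). With 3 libraries a group that p is the smallest possible and the difference cannot pass.

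The ratio's denominator was thin. miR-15a-5p and miR-15b-5p together held 25, 48 and 30 counts in the titled untreated group and 27, 11 and 27 in the titled ETBF group. Mean counts were 34.3 and 21.7 for the miR-15 pair and 349.7 and 355.3 for miR-16-5p. The log2 difference of 0.74 was 0.52 without titled ETBF replicate 2, the library with 11 miR-15 counts, and 0.89 without titled ETBF replicate 1. Taken against each miR-15 alone it was 0.85 for miR-15b-5p (exact permutation p = 0.3) and 0.79 for miR-15a-5p (exact permutation p = 0.2), and in both cases the groups overlapped.

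**Figure D2:**
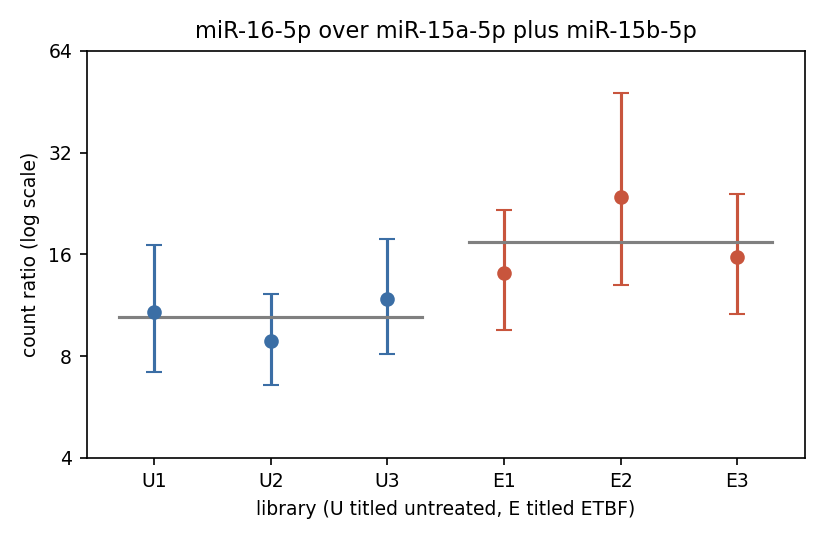
Count ratio of miR-16-5p to miR-15a-5p plus miR-15b-5p by library on a log axis, with exact 95% counting intervals and the geometric mean of each titled group (grey line). The titled untreated group sit between 8.85 and 11.8 and the titled ETBF group between 14.1 and 23.6. Intervals overlap across the groups except between titled untreated replicate 2 and titled ETBF replicate 2.

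The size of the ratio, though not its difference between groups, depends on how reads with 2 origins were counted. miR-16-5p has 2 loci with the same mature sequence, and some 2-locus entries in these tables were counted at each copy. miR-199a-3p, for example, held 2.00 times the counts of the identical 1-locus entry miR-199b-3p, and its counts were even in 5 of 6 libraries. Those of the 2-locus entries miR-26a-5p and miR-24-3p were also even in 5 of 6. Those of miR-16-5p were even in 3 of 6, as were those of miR-92a-3p, and those of miR-103a-3p and miR-194-5p in 2 of 6. Among values of at least 10 counts, 64.1% of 153 were even for 2-locus entries and 50.8% of 852 for 1-locus entries. These values leave undecided whether miR-16-5p was counted at both copies. Divided by its 2 loci, it would exceed the miR-15 pair 5.40, 4.43 and 5.90 times in the titled untreated group and 7.06, 11.8 and 7.87 times in the titled ETBF group.

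The ratio of miR-15b-5p to miR-15a-5p sets the chromosome 3 cluster against that on chromosome 13. It was 1.78, 2.69 and 1.50 in the titled untreated group and 5.75, 1.20 and 0.929 in the titled ETBF group. Titled ETBF replicate 1, with 23 against 4 counts, stood far above the rest, and its exact 95% counting interval ran from 1.96 to 22.9. The mean log2 ratios were 0.95 ± 0.43 and 0.89 ± 1.42 (SD, n = 3; exact permutation test, two-sided, p = 1, adjusted p = 1 over 3 measures). The sign of that difference of -0.055 turned without titled untreated replicate 2, titled ETBF replicate 2 or titled ETBF replicate 3, at 0.19, 0.26 and 0.45.

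The opposite arms of the hairpins tell the 2 miR-16 loci apart, because MIR16-1 and MIR16-2 share their 5p arm but not their 3p arm. The 4 hairpins are shown 5′ to 3′ from the same RefSeq table, with both mature arms in capitals.
MIR15B: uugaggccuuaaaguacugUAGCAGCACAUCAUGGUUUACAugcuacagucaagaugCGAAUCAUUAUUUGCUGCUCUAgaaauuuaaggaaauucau
MIR16-2: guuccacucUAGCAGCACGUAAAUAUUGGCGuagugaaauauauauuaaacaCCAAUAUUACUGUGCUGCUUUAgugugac
MIR15A: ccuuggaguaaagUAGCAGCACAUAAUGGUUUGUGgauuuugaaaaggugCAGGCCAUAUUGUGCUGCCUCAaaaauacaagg
MIR16-1: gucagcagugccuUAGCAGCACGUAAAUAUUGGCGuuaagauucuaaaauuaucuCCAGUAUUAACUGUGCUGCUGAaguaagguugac
Nearly all 3p reads of the miR-15 and miR-16 hairpins named the chromosome 3 pair. miR-16-2-3p held 3, 14 and 10 counts in the titled untreated group and 4, 13 and 12 in the titled ETBF group. miR-16-1-3p held 0, 1 and 0 against 1, 2 and 0. miR-15b-3p held 0, 7 and 4 against 4, 2 and 15, and miR-15a-3p had 0 counts in 6 of 6 libraries.

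Summed, 88 of 92 such counts belonged to the chromosome 3 cluster, 95.7% (exact 95% interval 89.2% to 98.8%), with 38 of 39 in the titled untreated and 50 of 53 in the titled ETBF group. For the miR-16 hairpins alone it was 56 of 60, 93.3% (83.8% to 98.2%). The 5p arms were less uneven, with 111 counts of miR-15b-5p and 57 of miR-15a-5p. How much of a 3p arm survives can differ between hairpins: it was 22.4% of both arms for MIR15B (32 of its counts), 0% for MIR15A, 10.4% for MIR195 (25 counts of miR-195-3p) and 0% for MIR497. The share of 3p reads is therefore no direct measure of where miR-16-5p came from.

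**Figure D3:**
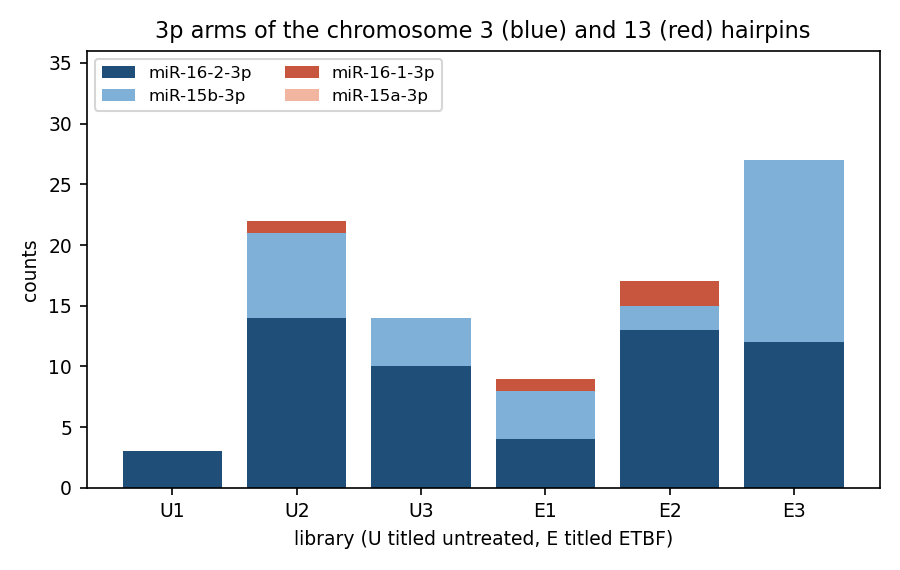
Counts of the 3p arms of the miR-15 and miR-16 hairpins in each library, stacked, in blue for the chromosome 3 hairpins MIR15B and MIR16-2 and in red for the chromosome 13 hairpins MIR15A and MIR16-1. Red makes up 4 of 92 counts and miR-15a-3p is at 0 throughout.

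Of all 8 opposite arms, 5 had a count and 0 reached the test. miR-424-3p held 2 counts in all, and miR-497-3p and miR-503-3p held none. miR-16-2-3p and miR-195-3p have the same seed, CAAUAUU, so MIR16-2 and MIR195 share a seed on both arms. miR-16-1-3p has another seed, CAGUAUU.

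Between the titled groups, 0 of the 4 tested members passed at an adjusted p under 0.05 by edgeR's quasi-likelihood test, where 14.4% of all tested entries did, 10.8% upwards and 3.59% downwards with ETBF by title. At an unadjusted p under 0.05 there were also 0 of 4, against 33.8% of all entries. DESeq2 and limma-voom each called 0 of 4, where each called 12.8% of all tested entries. In 0 of 4 did the groups of libraries stand apart without overlap, against 39.0% of all entries. miR-16-5p and miR-195-5p had positive and miR-15b-5p and miR-497-5p negative log2 fold changes, with a median of -0.12 where that of all tested entries was -0.03. The 95% intervals reached from -1.49 to 0.19 for miR-15b-5p, from -1.03 to 0.40 for miR-497-5p and from -0.19 to 0.68 for miR-195-5p.

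miR-103a-3p and miR-107, whose shifted seed gives them partly shared targets and which lie in introns of the pantothenate kinase genes, were compared as the nearest relatives. miR-103a-3p was the most abundant miRNA with the core, at 3.18 to 4.43 times the counts of miR-16-5p in a library. It held 947, 1643 and 1569 counts in the titled untreated group and 1274, 980 and 1351 in the titled ETBF group. Its levels of 4723 ± 263.4 and 4299 ± 118.5 CPM (SD, n = 3) did not overlap between the groups but did not pass (log2 fold change -0.14, SE 0.08, edgeR adjusted p = 0.282). miR-107, which differs from it by G22C, stood at 163.1 ± 51.4 and 164.1 ± 29.8 CPM (log2 fold change -0.05, SE 0.24, edgeR adjusted p = 0.870), and its sign turned with upper-quartile scaling, at 0.023. Also looked up were miR-646 and miR-6838-5p, which hold the core, and miR-103b, which does not. These 3 entries had 0 counts in 6 of 6 libraries. miR-6838-5p has the AGCAGCA seed as well, without being named in the family here.

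miR-143-3p and miR-145-5p, whose processing p53 is also known to aid, went from 3808 ± 557.8 to 3428 ± 423.4 CPM and from 190.1 ± 22.2 to 151.7 ± 25.2 CPM (SD, n = 3). Neither of the 2 passed (log2 fold changes -0.15 and -0.33, SE 0.13 and 0.18, edgeR adjusted p of 0.475 and 0.251). Among the red cell markers miR-451a stood at 131.5 ± 23.3 and 123.5 ± 32.8 CPM. miR-486-5p stood at 160.0 ± 17.3 and 149.2 ± 46.5 CPM (SD, n = 3). These were the 2 tested, and 0 passed (edgeR adjusted p of 0.862 and 0.768).

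**Figure D4:**
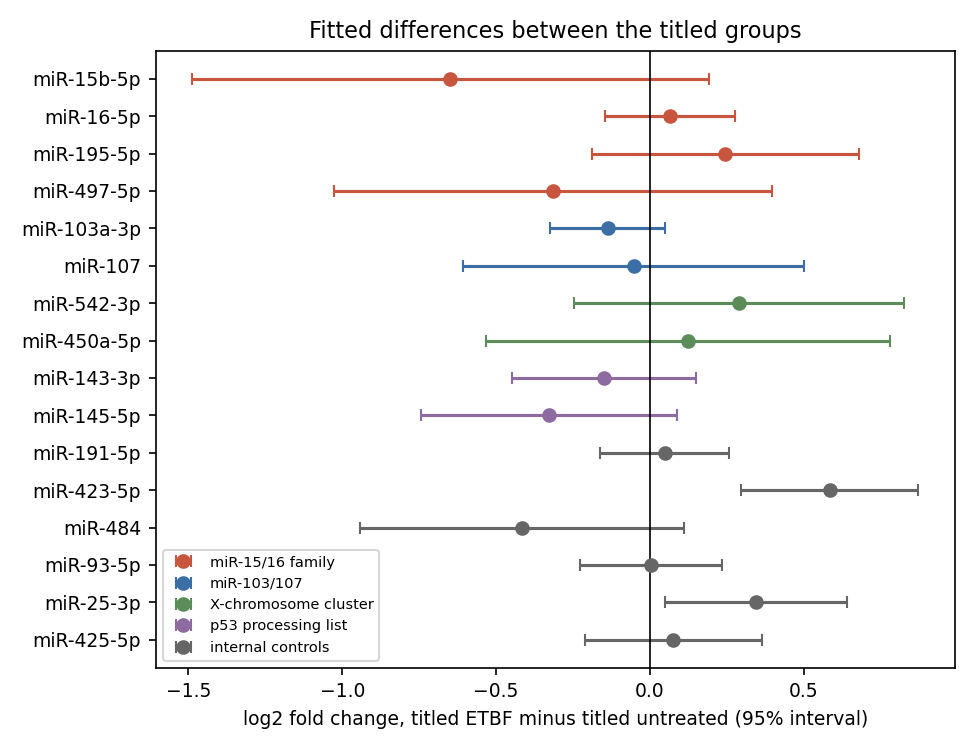
Log2 fold change between the titled groups for the 4 tested family members and 12 listed entries, with 95% intervals from the edgeR fit and the zero line. The interval of each family member crosses 0, and that of miR-16-5p is the narrowest of the 4. Of the other entries only miR-423-5p passed the threshold, which 14.4% of all tested entries passed.

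As miR-16-5p often serves as an internal control, its spread was set beside that of other miRNAs used that way. The SD of its log2 CPM over the 6 libraries was 0.09, the 17th smallest among all tested entries, where the median was 0.26. miR-93-5p, miR-191-5p and miR-103a-3p lay at 0.08, 0.09 and 0.09 and miR-425-5p at 0.12. miR-25-3p, miR-484 and miR-423-5p varied more, at 0.26, 0.31 and 0.36. These SDs include counting error, which is larger at low counts. Over the 6 libraries miR-484 held 161 counts, against 3729 for miR-25-3p, 1343 for miR-423-5p and 2115 for miR-16-5p. Of the 7 controls miR-423-5p was higher in the libraries titled ETBF, at 621.5 ± 97.1 and 935.1 ± 62.6 CPM (SD, n = 3; log2 fold change 0.58, SE 0.13, edgeR adjusted p = 0.0167), and 6 did not pass. Of all tested entries 14.4% passed, so the controls were not set apart by this. The other tested family members had SDs of 0.19 for miR-195-5p, 0.35 for miR-497-5p and 0.60 for miR-15b-5p, the last at place 175 from the smallest. They held only 215, 80 and 111 counts in all, so their SDs are not directly comparable with that of miR-16-5p.

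**Figure D5:**
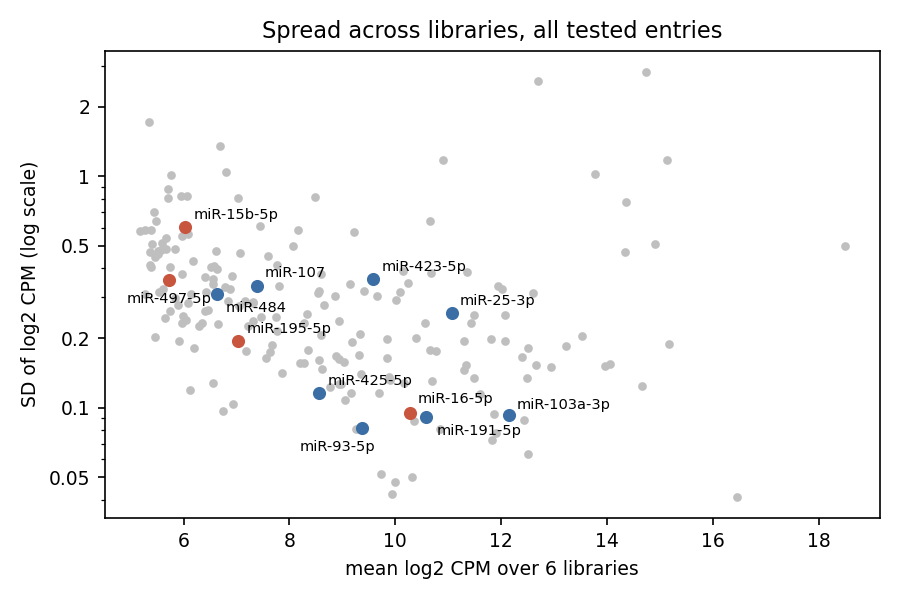
SD of log2 CPM over the 6 libraries (log axis) against mean log2 CPM for each tested entry (grey), with family members in red and the internal controls and miR-107 in blue. miR-16-5p lies low, at 0.09, beside miR-191-5p, and miR-15b-5p lies high, at 0.60.

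Likeness to other miRNAs was measured as the root-mean-square difference of log2 CPM, each entry taken relative to its own mean, over the 6 libraries and 132 entries of at least 100 CPM outside the family. Nearest to miR-16-5p were miR-26a-5p at 0.05, miR-425-5p at 0.06 and miR-423-3p at 0.06, where the median over entries was 0.20. Nearest to miR-15b-5p were miR-125a-5p at 0.31, miR-30a-3p at 0.34 and miR-23b-3p at 0.35, with a median of 0.57. These values share the same 6 libraries and their scaling, and those of miR-15b-5p also carry the counting error of its low counts.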

How the data were processed

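RNA was extracted from exosomes with Trizol, and libraries used 100 ng each, per the labels' protocols. The submitters' processing notes name Trimmomatic, FastQC, featureCounts and build GRCh37.p5. Versions, the aligner and the handling of multiply placed reads were not given in the sources used here. Each of the deposited files holds raw counts per mature miRNA, made by the authors without normalisation. The labels do not say that replicates were separate cultures, so the p-values reflect only how these libraries vary, which may be technical.

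Groups came from the titles. Entries were kept by filterByExpr (minimum count 10), scaled by TMM and tested with edgeR 4.0.16 (R 4.3.3), Benjamini-Hochberg adjusted over all tested entries at 0.05; the SE came from the fold change and the F statistic. Ratios and shares were compared by exact permutation (scipy 1.17.1). Scripts were tested on simulated data. Members, lists and named entries (all members, opposite arms, related miRNAs, cluster neighbours, internal controls, markers and the 3 entries most like each tested miR-15 or miR-16) were chosen with earlier results of these data known. miR-199a-3p, miR-199b-3p and miR-92a-3p were named after their values were seen. In the lists, miR-1 and miR-203a stand for miR-1-3p and miR-203a-3p. Alternatives were other scalings, filters, DESeq2 1.42.0, limma 3.58.1, a replicate block, and leaving out fragments or single libraries.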

Additional observations from a re-analysis of the deposited data

How the results depend on the processing

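The count of 0 called members held in 14 of 15 alternatives, and leaving out single replicates gave 0 to 1, the 1 being miR-15b-5p without titled ETBF replicate 1. These alternatives called between 7.11% (no filter) and 28.1% (without titled ETBF replicate 1) of all entries they tested. Leaving out single replicates gave log2 fold changes of -0.039 to 0.15 for miR-16-5p and -0.21 to 0.10 for miR-107; upper-quartile scaling gave 0.023 for miR-107. Signs held in 16 of 16 settings for miR-15b-5p, miR-195-5p, miR-497-5p and miR-103a-3p. The difference in the family's share ran from -0.0226 to 0.0100 percentage points without single replicates, was 0.0296 without miR-148a-3p in the total, -0.0449 without miR-7641, miR-6087 and miR-1246 in it, and -0.00382 with miR-16-5p divided by its loci, which lowered the shares themselves from 0.153% and 0.149% to 0.0912% and 0.0874%. The difference in the log2 ratio of miR-16 to miR-15 ran from 0.52 to 0.89 and that of miR-15b to miR-15a from -0.87 to 0.45. The cause of these moves was not tested. The replicate numbers were not shown to pair libraries: same-numbered libraries deviated together with r of 0.18, 0.10 and 0.05 across entries, and ETBF replicate 3 correlated best with another number. With the replicate block 0 members were called, calls over all entries went from 28 to 38, and the miR-16 to miR-15 difference of 0.74 had an exact sign-flip permutation p of 0.25, the smallest that 3 pairs allow. No filter gave 51 calls over all entries, upper-quartile scaling 42, and single replicates left out 17 to 59, against 28. Members other than miR-16-5p had at most 46 counts in a library.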
